A study of Mus musculus with 16 samples.

Results

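A set of 9 genes that encode surface or secreted proteins of homeostatic microglia was followed in RNA of microglia and macrophages sorted from the mouse brain. They were chosen by name and are Tmem119, Olfml3, Fcrls, Gpr34, Cx3cr1, Sparc, Selplg, Golm1 and Gpr84. The RefSeq transcripts of each expression table were mapped to symbols and summed, which found all 9 genes among 18580 genes of the series. Of the 9 genes, 8 were called higher in microglia than in macrophages by the test described below, and Fcrls was not called. Over all genes 6.76% were called higher. The members were chosen with earlier results of these data known, so this is no independent check of their label.

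The series compared microglia (CD11b+ cells with low or intermediate CD45) and macrophages (CD11b+ cells with high CD45) in male and female WT and CD163KO mice that had received murine α-syn as monomer (MONO) or preformed fibrils (PFF) in both striata. The CD163KO mice carry the CD163tm1.1(KOMP)Vlcg allele in every cell, the WT mice are C57BL/6N littermates, all mice were 12 weeks old at surgery and cells were taken 2 months later. Groups held 7 WT mice, 5 CD163KO mice, or 4 in the case of MONO-CD163KO males, and 1 expression table per population, sex, genotype and α-syn form gives 8 microglia and 8 macrophage libraries. Sorting gave between 200000 and 500000 microglia and between 10000 and 30000 macrophages, and the macrophage gate also holds border-associated macrophages, infiltrated cells, neutrophils and NK cells. The study excluded MONO-CD163KO males, so these libraries are described here but stay out of the tests, which use 14 libraries. No condition is repeated, so each test takes its spread from libraries that differ in the other factors, and p-values measure the spread between these libraries.

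Homeostatic microglia survey the brain in a resting state that is kept up by signals such as TGF-β and CSF1. In that state they carry a set of receptors and adhesion molecules that other brain macrophages express at low levels or lack, and they reduce many of these when they are activated. Cx3cr1 is the receptor of the neuronal chemokine fractalkine, Gpr34 a receptor of lysophosphatidylserine and Gpr84 a receptor of medium-chain fatty acids that is known to rise on inflammatory activation. Selplg encodes the selectin ligand PSGL-1, Fcrls an Fc receptor-like protein, and Tmem119 a membrane protein that is widely used to mark microglia in tissue. Olfml3 and Sparc are secreted proteins of the extracellular matrix, and Golm1 is a Golgi membrane protein that can be cleaved and released.

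Total estimated counts (reads assigned by RSEM) ran from 8648751 to 18768238 in microglia and from 12170686 to 21433841 in macrophages. In both populations, the libraries of PFF-WT males and MONO-CD163KO males stood apart, in opposite directions. The 10 most counted genes took 58.7% and 47.7% of the counts in these 2 microglia libraries against 13.5% to 16.4% in the other 6, and 16.5% and 16.6% in the 2 macrophage libraries against 39.7% to 64.0% in the other 6. Relative to the population's median on the log2 CPM scale, the median gene lay at -1.97 and -1.03 in these microglia libraries and at 0.94 and 0.97 in these macrophage libraries. The factors by which TMM, edgeR's scaling for such differences, corrects the library totals were 0.431 and 0.819 in these microglia and 1.34 and 1.56 in these macrophages, against 1.95 to 2.09 and 0.324 to 0.875 in the others. FPKM were divided by these factors (TMM-scaled FPKM) to see where the scaling turns an order or a direction, and such values are given beside those of the deposited FPKM. The library labelled microglia of MONO-CD163KO females held 799 counts of Y-linked genes, where the other 7 female libraries held at most 2. Cd163 had between 748 and 5275 counts in WT macrophages and at most 1 in CD163KO macrophages, whereas the microglia libraries labelled CD163KO held 5 to 23 counts, those of WT females 46 and 101 and those of WT males 0 and 1.

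By the RefSeq annotation of GRCm38.p6, all 9 are protein-coding genes. Tmem119 (chr5:113793729-113800396) and Selplg (chr5:113817798-113832528) are 17401 bases apart, and the annotation places 2 predicted genes, Gm42004 and Gm19931, between their outer ends. Fcrls (chr3:87250736-87263765) and Olfml3 (chr3:103735394-103738001) share a chromosome, and Gpr34 (chrX:13622650-13640859) is X-linked. Cx3cr1 lies at chr9:120048683-120068296, Sparc at chr11:55394159-55420080, Golm1 at chr13:59634996-59675784 and Gpr84 at chr15:103308233-103310670. The tables list 2 transcripts for Sparc and 2 for Golm1, whose values were summed, and 1 for each other gene.

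The RefSeq promoter table of GRCm38.p6 held 6 of the 9 genes, with windows of 250 bases before and 50 after a start site. That site is the outer end of the gene as located above for Olfml3, Cx3cr1, Sparc and Golm1, but lies 241 bases inside it for Fcrls and 232 for Gpr84, so that only 9 and 18 bases of these 2 windows lie before the outer end of the gene. In all, 7 motifs were searched on both strands. The PU.1-type ETS site was written as GAGGAAG, the site of RUNX factors as TGTGGTT and the box bound by the TATA-binding protein as TATAAA. The sites of MEF2 and SMAD factors were written as CTATTTAT and GTCTAGAC, that of AP-1 as TGANTCA, and the ETS-IRF composite is given by its name. The windows of Fcrls and Olfml3 are shown because these 2 members share chromosome 3. Their difference between the populations was small for Fcrls and large for Olfml3. Of the members with a promoter, Sparc and Golm1 differed more than Olfml3 (log2 differences of 4.44 and 3.82 against 3.79). Matches are in capitals, both windows read 5′ to 3′ on the strand of the gene (the minus strand), and they lie at chr3:87263475-87263774 (Fcrls) and chr3:103737952-103738251 (Olfml3).
Fcrls: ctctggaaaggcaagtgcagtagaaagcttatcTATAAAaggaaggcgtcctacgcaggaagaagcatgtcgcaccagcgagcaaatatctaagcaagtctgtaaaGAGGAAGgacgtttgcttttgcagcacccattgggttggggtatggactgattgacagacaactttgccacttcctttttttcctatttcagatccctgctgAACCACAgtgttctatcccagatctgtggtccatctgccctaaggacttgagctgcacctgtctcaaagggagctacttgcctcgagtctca
Olfml3: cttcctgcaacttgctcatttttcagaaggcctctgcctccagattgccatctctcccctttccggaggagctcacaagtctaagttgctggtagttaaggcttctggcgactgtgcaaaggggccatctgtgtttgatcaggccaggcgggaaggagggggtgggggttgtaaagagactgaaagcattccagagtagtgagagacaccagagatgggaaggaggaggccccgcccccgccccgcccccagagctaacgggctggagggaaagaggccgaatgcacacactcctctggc
The Fcrls window held the TATA box from base 34, the PU.1-type site from base 107 and the RUNX site on the opposite strand from base 209. The Olfml3 window held none of the 7, nor did those of Cx3cr1, Sparc and Gpr84, and that of Golm1 held only the TATA box on the opposite strand from base 66. Over all 32851 promoter windows, 13.6% held the PU.1-type site, 5.27% the RUNX site and 13.6% the TATA box, and the other 4 motifs were found in 0.213% to 7.81%. Overlapping matches between motifs did not occur in these windows, and a match only describes the letters.

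The levels are given as FPKM, that is, scaled to transcript length and library total, so that genes can be compared with each other. In microglia, Selplg had the highest median of the 9 genes (2487 FPKM over 8 libraries), followed by Tmem119 (2098), Fcrls (1529), Gpr34 (1231), Sparc (1216), Olfml3 (1143), Cx3cr1 (571.5), Golm1 (242) and Gpr84 (109). The ranges of each gene and the next one in this order overlapped. Selplg exceeded Tmem119 in 7 of 8 libraries and Tmem119 exceeded Fcrls in 6, whereas Fcrls against Gpr34, Gpr34 against Sparc and Sparc against Olfml3 each split 4 to 4. Olfml3 exceeded Cx3cr1, Cx3cr1 exceeded Golm1 and Golm1 exceeded Gpr84 in 8 of 8. Selplg ranked between 18 and 25 among all genes of a microglia library and Tmem119 between 23 and 37, while Gpr84 ranked between 372 and 934.

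In macrophages the order was another one. Fcrls led with a median of 399 FPKM and exceeded the second gene, Selplg (160), in 8 of 8 libraries. Gpr34 (59.6), Tmem119 (36.5), Cx3cr1 (36.2), Olfml3 (32.1), Sparc (19.1), Golm1 (5.58) and Gpr84 (4.03) followed. Tmem119 and Cx3cr1 did not keep their order (Tmem119 was above in 3 of 8 libraries), nor did Golm1 and Gpr84 (3 of 8). The sum of the 9 genes was between 8804 and 12620 FPKM in microglia, which is 1.60% to 2.08% of a library's total FPKM, and between 540 and 1360 FPKM in macrophages, 0.0613% to 0.206%.

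**Figure D1:**
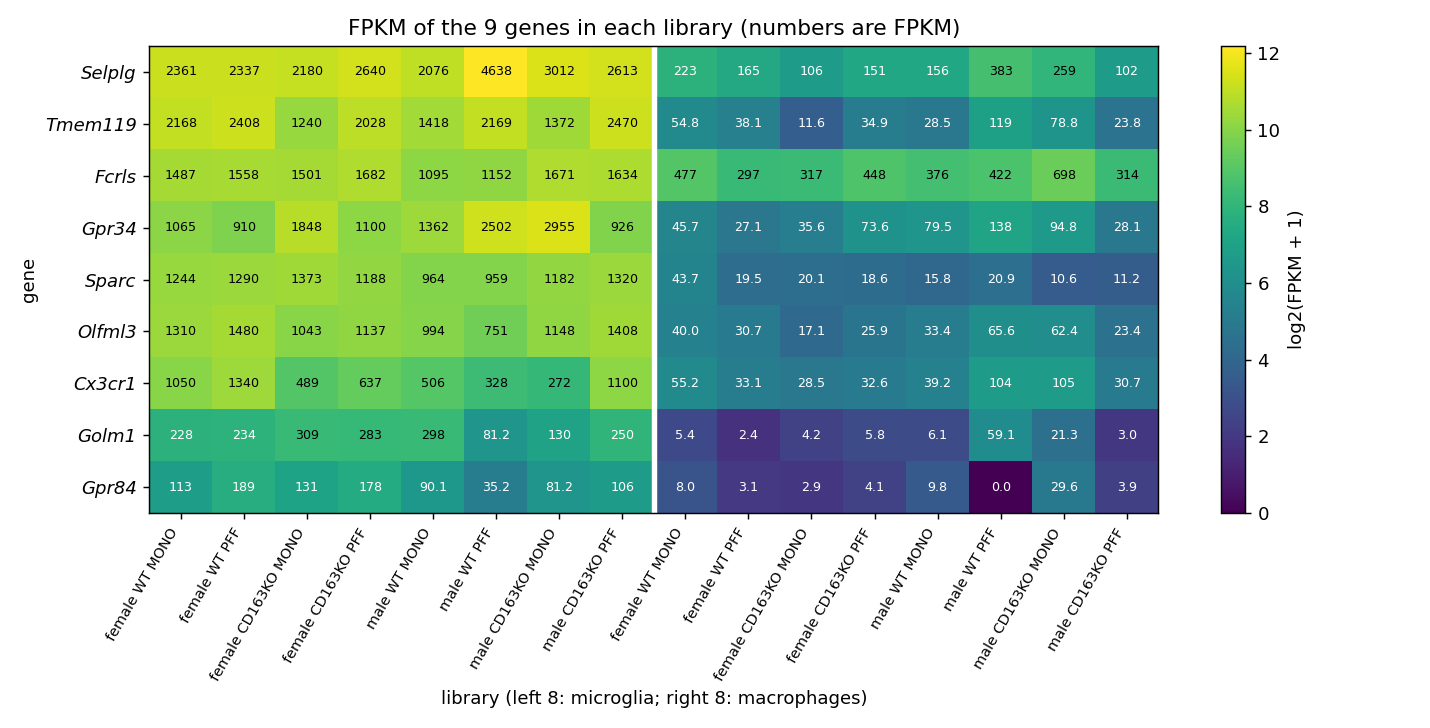
FPKM of the 9 genes (rows, ordered by their median in microglia) in the 16 libraries (columns, named by sex, genotype and injected α-syn), with colour for log2(FPKM + 1) and the FPKM printed in each cell. On this scale every gene is higher in each microglia library than in the macrophage library of the same condition (after TMM scaling all but Fcrls in PFF-WT females), and Fcrls has the highest value of the 9 in each macrophage library.

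The FPKM of the receptor Cx3cr1 differed 4.93-fold between microglia libraries, against 5.36-fold for Gpr84 and 3.25-fold for Gpr34. Cx3cr1 reached 1050.1 FPKM in MONO-WT females, 1340.5 in PFF-WT females, 489 in MONO-CD163KO females, 637 in PFF-CD163KO females, 506 in MONO-WT males, 328 in PFF-WT males, 272 in MONO-CD163KO males and 1099.9 in PFF-CD163KO males. The 3 highest libraries are those of WT females and of PFF-CD163KO males, and the remaining 5 do not exceed 637. Gpr34 ran against this order, from 910 FPKM in PFF-WT females, 926 in PFF-CD163KO males, 1065 in MONO-WT females and 1100.5 in PFF-CD163KO females to 1362 in MONO-WT males, 1848 in MONO-CD163KO females, 2502 in PFF-WT males and 2955 in MONO-CD163KO males. The 3 libraries with the lowest Gpr34 are the 3 with the highest Cx3cr1. The opposite order did not hold after TMM scaling, where PFF-WT males had the highest values of both genes (761 TMM-scaled FPKM for Cx3cr1 and 5808 for Gpr34) and Gpr34 differed 12.5-fold, Cx3cr1 3.09-fold and Gpr84 2.19-fold. Gpr84 was 113 FPKM in MONO-WT females and 189 in PFF-WT females, 131 in MONO-CD163KO females and 178 in PFF-CD163KO females, 90.1 in MONO-WT males and 35.2 in PFF-WT males, and 81.2 in MONO-CD163KO males and 106 in PFF-CD163KO males. It was higher with PFF in 3 of the 4 pairs that share sex and genotype, and every library labelled female was above every one labelled male. The library labelled MONO-CD163KO females is the one that held 799 counts of Y-linked genes. After TMM scaling the sexes overlapped, with 99.2 in MONO-CD163KO males as the highest value and 53.8 to 96.4 in females. PFF then exceeded MONO in WT males too (81.7 against 45.2) but not in CD163KO males (54.6 against 99.2).

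The 4 microglia libraries with the highest FPKM of Cx3cr1 also had the highest sums of 13 immediate early and chemokine genes known to rise during tissue dissociation (Fos, Jun, Egr1, Ccl3 and others). Their summed FPKM was 8540 in PFF-WT females, 4398 in MONO-WT females, 3852 in PFF-CD163KO males and 4885 in PFF-CD163KO females, and between 1054 and 2677 in the 4 libraries with the lowest Cx3cr1. The part of these genes in the levels of Cx3cr1 and Gpr34 was not tested. Cx3cr1 and Golm1 have the longest transcripts of the 9 (3753 and 3557 bases for the main transcript, Gpr34 1898). In microglia of PFF-WT males, the median gene under 1500 bases lay at -1.66 and the median gene of 3500 bases or more at -2.13 against the population's median on the log2 CPM scale, and in MONO-CD163KO males at -0.50 and -1.28. Over the other 6 microglia libraries these medians lay between 0.02 and 0.19. The part of transcript length in the low FPKM of Cx3cr1 and Golm1 in those 2 libraries was not tested.

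Selplg, the selectin ligand, kept within 2076.5 and 2640.4 FPKM in 6 microglia libraries and reached 3012 in MONO-CD163KO males and 4638 in PFF-WT males, which were also the highest after TMM scaling (3678 and 10760). Tmem119 fell into values of 1240 (MONO-CD163KO females), 1372 (MONO-CD163KO males) and 1418 FPKM (MONO-WT males) and values of 2028 to 2470 in the other 5 libraries. All 4 PFF libraries belong to the higher values, with MONO-WT females (2168). After TMM scaling MONO-CD163KO males had the second highest Tmem119 (1675) below PFF-WT males (5034). The FPKM of Fcrls ran from 1095 FPKM in MONO-WT males to 1682 in PFF-CD163KO females, a 1.54-fold range.

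Of the secreted proteins, Sparc ranged from 959 FPKM in PFF-WT males to 1373 in MONO-CD163KO females (1.43-fold, the narrowest range of the 9 genes on this scale) and Olfml3 from 751 in PFF-WT males to 1480 in PFF-WT females. Golm1 was 81.2 FPKM in PFF-WT males and 130 in MONO-CD163KO males, below all other microglia libraries, which ran from 228 to 309. This order turned with TMM scaling, where both were above the other 6 (188 and 159 against 109 to 155) and Golm1 had the narrowest range of the 9 (1.73-fold, against 4.60-fold for Sparc and 4.87-fold for Fcrls). Sparc is also known from endothelial cells and fibroblasts. In microglia, 10 endothelial markers together reached 5.13 to 45.1 FPKM and 8 pericyte and fibroblast markers 0.59 to 9.11. In macrophages, where Sparc was 10.6 to 43.7 FPKM, the same lists summed to 35.0 to 157 and 1.26 to 44.7, and the part of these cells in the level of Sparc was not tested in either population.

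**Figure D2:**
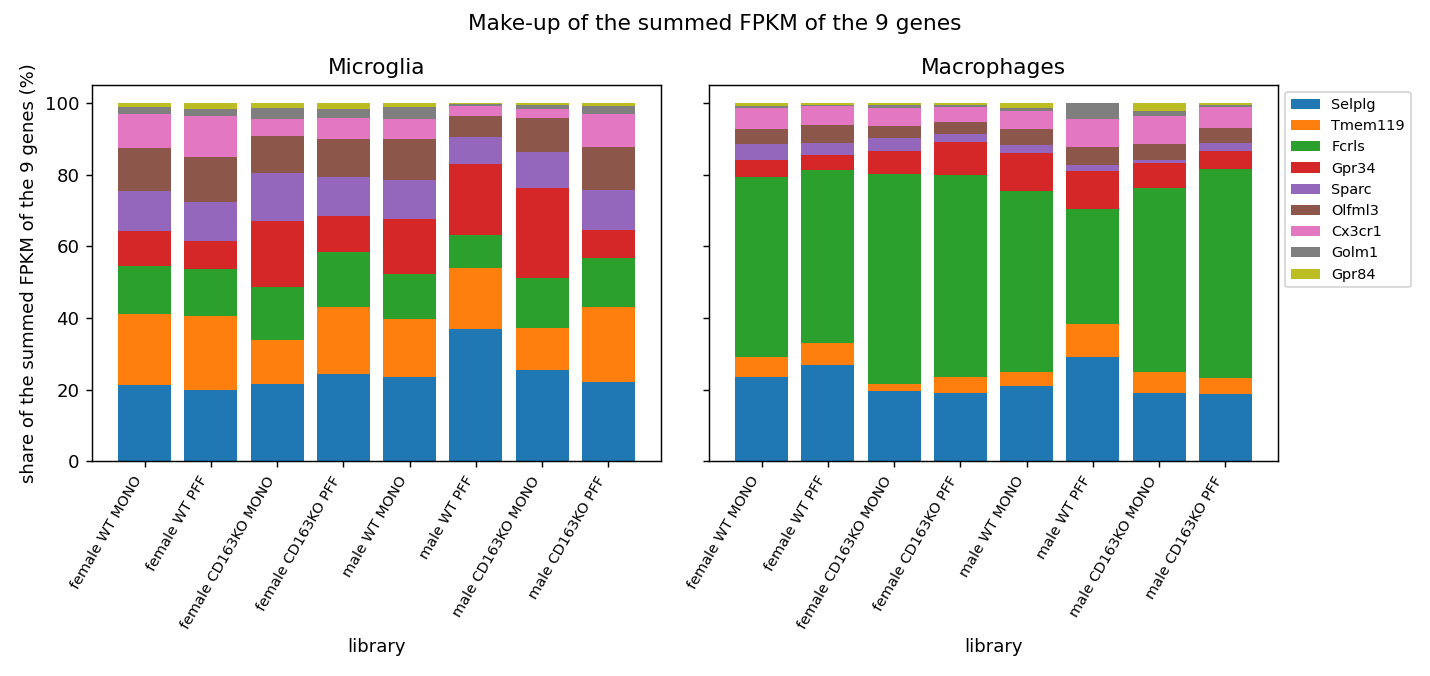
Share of each gene in the summed FPKM of the 9 genes (y axis, %) for the 8 microglia (left) and 8 macrophage libraries (right), 1 bar per library. Fcrls takes 32.2% to 58.4% of the sum in macrophages and 9.13% to 15.5% in microglia, and Selplg takes 36.8% in microglia of PFF-WT males.

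Microglia were compared with macrophages to ask which genes separate the sorted populations. Matching the 2 populations of each condition in edgeR's quasi-likelihood test (TMM scaling, Benjamini-Hochberg adjustment over 13704 genes), 8 of the 9 genes were called higher in microglia at an adjusted p under 0.05 and 0 lower, where 6.76% of all genes tested were called higher. The secreted Sparc was higher by 4.44 on the log2 scale (SE 0.47, 21.8-fold, adjusted p = 5.1e-05) and Tmem119 by 4.38 (SE 0.36, adjusted p = 8.31e-06), a gap smaller than either SE. Without microglia of PFF-WT males these values were 4.08 and 4.15. Golm1 was higher by 3.82 (SE 0.30, adjusted p = 5.58e-06) and Olfml3 by 3.79 (SE 0.29, adjusted p = 5.22e-06).

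The 3 G protein-coupled receptors lay in the middle of the 9 genes: Gpr84 at 3.39 (SE 0.89, adjusted p = 0.0239), Gpr34 at 3.19 (SE 0.43, adjusted p = 0.00027) and Cx3cr1 at 2.69 (SE 0.25, adjusted p = 2.1e-05). Selplg differed by 2.50 (SE 0.47, adjusted p = 0.00263). Fcrls differed by 0.48 (SE 0.39, adjusted p = 0.429), close to the median of all genes (0.37). On the FPKM scale without TMM, where the median of all genes moved to 1.05, limma gave 1.93 for Fcrls and called it (adjusted p = 7.09e-05) with the other 8, where 47.9% of all genes were called higher. In a fit without microglia of PFF-WT males, the 8 genes were called, where 14.6% of all genes were called higher, and Fcrls was at 0.13 (adjusted p = 0.562). Gpr84, with 0 counts in macrophages of PFF-WT males, which allows up to 0.164 CPM, lost the call in 11 of the 14 fits that left out 1 library, with adjusted p between 0.0502 and 0.0884. In bulk RNA, fewer cells of a type and less RNA per cell cannot be told apart.

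**Figure D3:**
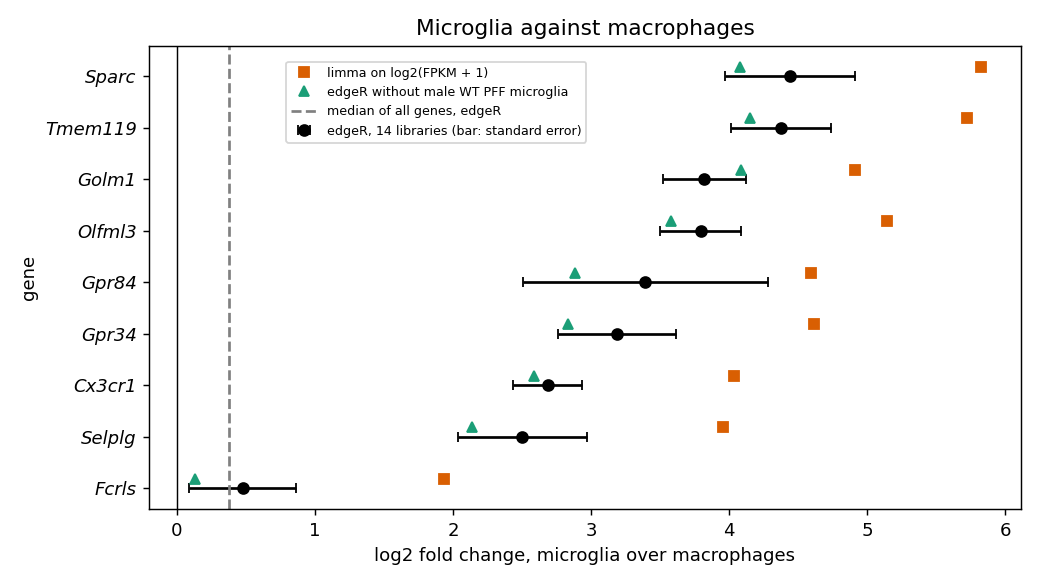
Log2 fold change of microglia over macrophages (x axis) for the 9 genes (y axis). Black points with bars are edgeR estimates with their standard error over 14 libraries, orange squares limma on log2(FPKM + 1), green triangles edgeR without microglia of PFF-WT males, and the dashed line the median of all genes in edgeR (0.37). Fcrls lies beside that line in both edgeR fits, and among the black points Sparc and Tmem119 are farthest to the right.

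Other genes of the homeostatic program moved with them. Of 25 further homeostatic microglia genes, 20 were called higher in microglia and 0 lower, with a median log2 difference of 2.40. Over all genes 6.76% were called higher. The 4 with the largest difference were the transcription factor Sall1 (7.16, SE 0.64, adjusted p = 3.2e-05), the adhesion receptor Adgrg1 (6.60, SE 0.91), the fructose transporter Slc2a5 (6.56, SE 0.87) and the checkpoint receptor Lag3 (5.07, SE 0.69). The 5 not called, named after their values were seen, were Csf1r, Cst3, Ctss, Ltc4s and P2ry6, at 1.12, 1.43, -1.45, -0.02 and 0.22. In the same fit all 12 border macrophage markers, 11 of 12 neutrophil markers and 9 of 10 monocyte markers were called lower in microglia, where 11.8% of all genes were. The other neutrophil marker, Csf3r, was called higher (1.18, SE 0.22, adjusted p = 0.00258). All of these lists were chosen with earlier results of these data known.

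The partners of the receptors and of Selplg were read as well. Of 8 enzymes that build the sugar of selectin ligands or sulfate the tyrosines of PSGL-1, 3 were called higher in microglia and 0 lower. The median of the 8 was -0.21, and over all genes 6.76% were called higher and 11.8% lower. The 3 were Gcnt1 (2.14, SE 0.31, adjusted p = 0.00054), the tyrosylprotein sulfotransferase Tpst2 (1.12, SE 0.22, adjusted p = 0.00408) and the sialyltransferase St3gal6 (0.88, SE 0.26, adjusted p = 0.0343). The 5 not called, Fut7, Tpst1, St3gal4, Fut4 and B4galt1, had estimates of -4.17, -2.09, -1.39, -0.29 and -0.13. Of 10 ligands and partners, 8 could be tested. Abhd12, the lipase that degrades lysophosphatidylserine, was higher in microglia (1.28, SE 0.26, adjusted p = 0.00496).

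Condition by condition, the macrophage level of Fcrls was between 19.1% and 41.8% of the matched microglia level, with a median of 29.4% over 8 conditions. For Selplg this percentage was 3.90% to 9.44% and for Gpr34 1.93% to 6.68%. Sparc had the lowest median, 1.54%, and Tmem119 the next, 1.87%. Cx3cr1 stood at 2.47% to 7.75% in 6 conditions, but at 31.6% in PFF-WT males and 38.6% in MONO-CD163KO males, and Golm1 at 1.02% to 2.37% in those 6 but at 72.8% and 16.4%. The spread between genes within 1 condition is wide: in PFF-WT females it ran from 1.02% for Golm1 to 19.1% for Fcrls. Among the 25 further homeostatic genes, the medians over conditions ran from 0.237% for Sall1 to 94.6% for Ctss. TMM scaling raised these percentages in most conditions: the median of Fcrls became 88.8%, with a range of 11.7% to 115% and macrophages above microglia in PFF-WT females. The medians of the other 8 genes became 4.55% (Sparc) to 18.5% (Selplg). Cx3cr1 then ran from 10.1% to 25.8%, highest in MONO-CD163KO females. PFF-WT males and MONO-CD163KO males thus no longer exceeded all other conditions for this gene. Golm1 ran from 4.67% to 23.3%, still highest in PFF-WT males.

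**Figure D4:**
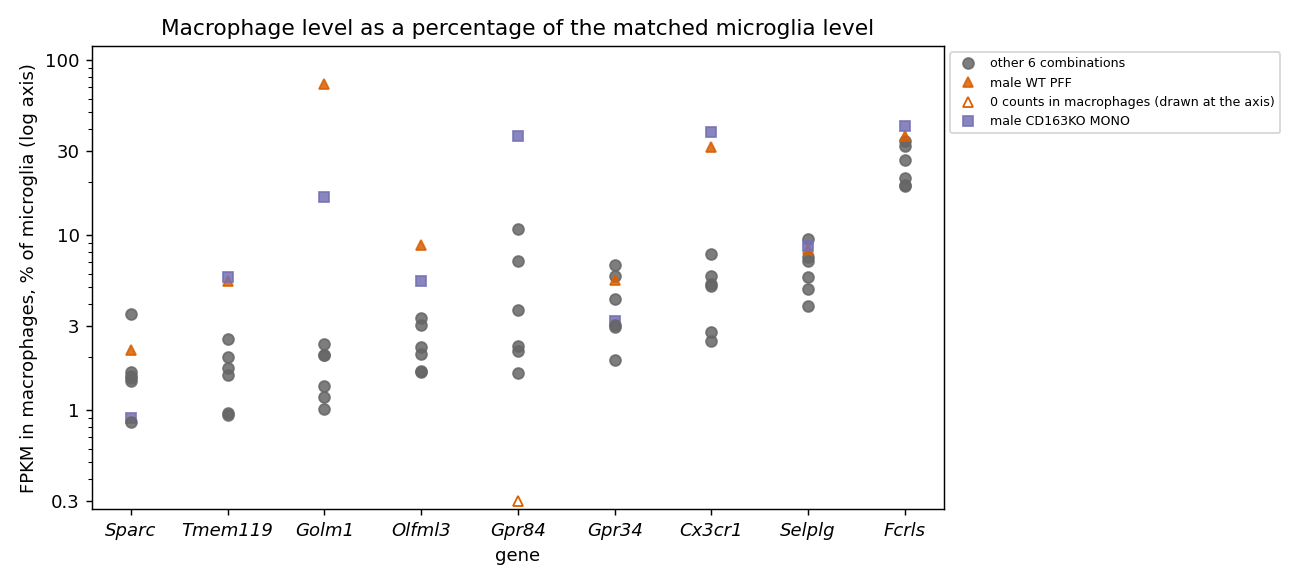
FPKM in macrophages as a percentage of the FPKM in microglia of the same condition (log y axis) for each gene (x axis, ordered by median), 1 point per condition. Triangles are PFF-WT males and squares MONO-CD163KO males, and the open triangle marks Gpr84 at 0 counts. Fcrls lies highest in every condition except PFF-WT males, where Golm1 does.

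PFF and MONO libraries were then compared within each population to ask whether fibrils changed these genes. In microglia, with sex and genotype as terms, 0 of the 9 genes were called, as were 0% of 12725 genes (783 at an unadjusted p under 0.05, and 118 called by DESeq2, none of the 9 among them). Gpr84 had the only unadjusted p under 0.05 among the 9, at 0.67 (SE 0.29, unadjusted p = 0.0407, adjusted p = 0.766), and in the 2 female pairs its FPKM was 1.67 and 1.36 times as high with PFF. All 9 estimates were above 0, with a median of 0.71 where all genes had 0.13. Without PFF-WT males 7 were above 0, with a median of 0.25 (all genes 0.09), and limma on log2(FPKM + 1) also had 7 above 0, with a median of 0.10 (all genes -0.39). In the same edgeR fit all 13 immediate early and chemokine genes were above 0 with a median of 1.01, 10 of them at an unadjusted p under 0.05 and 0 called. Their part in the shift of the 9 genes was not tested. In macrophages 0 of the 9 and 0% of 11988 genes were called (141 at an unadjusted p under 0.05, 71 by DESeq2). Tmem119 had an estimate of 1.18 there (SE 0.39, unadjusted p = 0.0158, adjusted p = 1), and 1.20 without PFF-WT males (adjusted p = 1). Its macrophage FPKM with MONO and PFF was 54.8 and 38.1 in WT females, 11.6 and 34.9 in CD163KO females, and 28.5 and 119 in WT males, so the direction differed between the pairs. After TMM scaling PFF was higher in all 3 (79.3 and 118, 25.8 and 57.3, and 32.5 and 88.3). With population and treatment in 1 model, the difference in the response to PFF between the populations was called for 0 of the 9 genes. Over all genes 0.0073% were called (245 genes at an unadjusted p under 0.05, 296 called by DESeq2).

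CD163KO and WT were compared in the same way. In microglia 0 of the 9 genes and 0% of all genes were called for genotype (154 at an unadjusted p under 0.05, 64 by DESeq2), and 8 of the 9 estimates were below 0 with a median of -0.46 (all genes -0.04). This direction rested on PFF-WT males, without which 5 were above 0 and the median was 0.10 (all genes -0.02). In limma on log2(FPKM + 1) 5 were above 0 with a median of 0.05, but the median of all genes was 0.40 there. The median of the 9 genes thus lay below that of all genes on both scales. The 13 immediate early and chemokine genes were all below 0 in the edgeR fit, with a median of -0.60 and 0 called. In macrophages 0 of the 9 were called, where 0.00834% of all genes were. Tmem119 had an estimate of -1.01 (SE 0.37, unadjusted p = 0.0266, adjusted p = 1) and -1.04 without PFF-WT males, with 11.6 to 34.9 FPKM in the 3 CD163KO libraries tested and 28.5 to 119 in the 4 WT ones. The difference between the genotypes was called as unequal in the populations for 0 of the 9 genes and 0% of all genes (173 at an unadjusted p under 0.05, 241 called by DESeq2).

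Males and females were compared because the study analysed the sexes separately. In microglia 0 of the 9 genes and 0% of all genes were called (220 at an unadjusted p under 0.05, 88 by DESeq2). In macrophages 0 of the 9 were called, where 0.00834% of all genes were. The macrophage level of Sparc differed by -1.27 between males and females (SE 0.44, unadjusted p = 0.0193, adjusted p = 1). It was 43.7 FPKM in MONO-WT females, 19.5 in PFF-WT females, 20.1 in MONO-CD163KO females and 18.6 in PFF-CD163KO females, against 15.8 in MONO-WT males, 20.9 in PFF-WT males and 11.2 in PFF-CD163KO males, so the sexes overlapped. After TMM scaling they did not, with 30.6 to 63.2 in the 4 female and 15.6 to 27.5 in the 3 male libraries, and without PFF-WT males the estimate was -1.09 (adjusted p = 0.994). MONO-WT females, with the highest Sparc, also had the highest sum of 7 choroid plexus markers among the macrophage libraries (12620 FPKM against 84.9 to 4373), and in the same fit all 7 choroid plexus (median -3.41), all 8 astrocyte (-1.34) and all 7 oligodendrocyte markers (-1.32) had estimates below 0, as had 8 of the 9 genes (-0.38, all genes -0.18), with 0 called. The part of these cells in Sparc and the other genes was not tested.

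For the interactions, genotype with treatment called 0 of the 9 genes in microglia, where 0.0141% of all genes were called, and 0 in macrophages, as for 0% of all genes (61 at an unadjusted p under 0.05, 23 by DESeq2). Sex with genotype called 0 of the 9 in microglia, where 0.0141% of all genes were called, and 0 in macrophages, as for 0% of all genes (218 at an unadjusted p under 0.05, 16 by DESeq2). Gpr34 had the estimates farthest from 0 in microglia, -3.27 for genotype with treatment (SE 1.58, unadjusted p = 0.0484, adjusted p = 1) and -3.61 for sex with genotype (SE 1.59, unadjusted p = 0.0318, adjusted p = 0.871). Without PFF-WT males, these were -0.58 and -0.65. Cx3cr1 had 0.89 for sex with genotype, and without PFF-WT males 1.79, called with an adjusted p of 0.00298 in a fit with 1 residual degree of freedom that called 3.02% of all genes.

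The single pairs behind these fits have no replicate and no test, and are given as differences of log2(FPKM + 1) where a gene reached 1 FPKM in one of the libraries or both. In microglia, Cx3cr1 was the only one of the 9 genes past 1 between CD163KO and WT females, at -1.10 with MONO and -1.07 with PFF, where 30.4% and 11% of all genes were past 1. The MONO pair includes the library that held Y-linked counts. In males given PFF, the same difference was 1.74, with the WT library that stood apart. TMM scaling left the female differences at -1.03 and -1.08. That of the males turned to -0.43 (566 in CD163KO against 761 TMM-scaled FPKM in WT). In this pair of males Gpr34 (-1.43), Golm1 (1.61) and Gpr84 (1.565) were also past 1 on FPKM. After TMM scaling 0 of the 9 genes were higher and 6 lower there, where 16.3% of all genes were past 1. None of the 9 genes was past 1 between PFF and MONO in WT females (19.5% of all genes) or CD163KO females (20.9%), or between males and females of PFF-CD163KO mice (12.5%). Between PFF-WT males and females, 1 gene was higher (Gpr34, 1.46) and 3 lower (Gpr84, Cx3cr1 and Golm1, -2.39 to -1.52), where 85.6% of all genes were past 1 around a median of -1.74. TMM scaling brought the median of all genes to -0.09 (16.3% past 1) and gave another picture, with 6 of the 9 genes higher in males and 0 lower. Gpr34 was then at 3.64, Gpr84 at -0.24, and Cx3cr1 and Golm1 turned to 0.15 and 0.65.

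**Figure D5:**
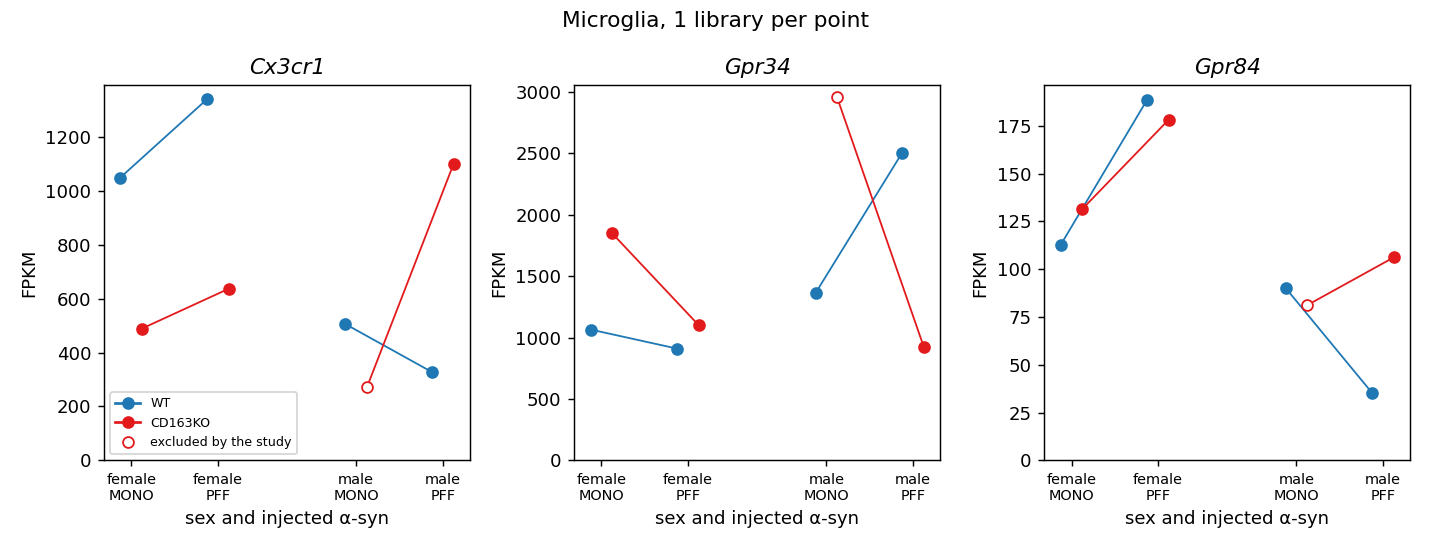
FPKM of Cx3cr1, Gpr34 and Gpr84 (y axes, from 0) in the 8 microglia libraries, by sex and injected α-syn (x axis), with WT in blue and CD163KO in red. Lines join MONO and PFF of the same sex and genotype, 1 library per point, and the open point is the combination the study excluded. WT females are above CD163KO females for Cx3cr1 with both forms of α-syn, also after TMM scaling, whereas the order of the males given PFF turns with that scaling.

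In macrophages, the medians of all genes were also away from 0 on FPKM. With PFF, 0 were higher and 2 lower than with MONO in WT females (41.5% of all genes past 1, median of all genes -0.87), and 2 were higher and 0 lower in CD163KO females (21.9%, median 0.37). Between CD163KO and WT females, 5 were lower with MONO (27.1%, median -0.52), led by Tmem119 at -2.15, and 2 were higher with PFF (34.7%, median 0.74), Gpr34 at 1.41 and Golm1 at 1.00. Males exceeded females in 6 genes in PFF-WT mice (84.8%, median 1.65), led by Golm1 at 4.15, with Gpr84 lower at -2.02, and 1 gene was lower in males of PFF-CD163KO mice (24.8%, median -0.48), Gpr34 at -1.36. After TMM scaling, the PFF and MONO pair of WT females held 0 such genes (19.6% of all genes) and that of PFF-CD163KO males and females 0 (23.3%). Between CD163KO and WT females given PFF, 0 were then higher and 3 lower (22.4%), and between PFF-WT males and females 1 was higher (Golm1, 2.43) and 3 lower, around a median of all genes of -0.67 (70.4% past 1).

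Over all 16 libraries, the genes with the profile most like each member were found by the smallest root mean square difference of centred log2(TMM CPM + 1) among 7205 genes with a mean of at least 10 CPM. Tmem119 and Olfml3 were each other's nearest gene (0.47), with Serpine2 (0.64) and P2ry12 (0.73) next to Tmem119, and Siglech (0.52) and Tspan18 (0.54) next to Olfml3. Gpr34 was nearest to P2ry12 (0.56) and Gm2897 (0.62), and Sparc to Col27a1 (0.59), Serpine2 (0.69) and Gm3383 (0.70). Fcrls had other neighbours, among them Grn (0.29) and Ctsz (0.32). Cx3cr1 was nearest to Rhob (0.37), Abi3 (0.38) and F11r (0.41), Selplg to Phyhd1 (0.43), Ctsd (0.52) and Trem2 (0.58), Golm1 to Tanc2 (0.49), Plxdc2 (0.52) and Mylip (0.55), and Gpr84 to Tmem63a (0.40), Pald1 (0.45) and Hps4 (0.48). The median difference over all genes compared was between 1.14 for Fcrls and 2.66 for Sparc.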

How the data were processed

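Microglia and macrophages sorted from the mouse brain were sequenced with SMART-seq2, which copies full-length mRNA from little RNA. Per the study's methods, rRNA and low-quality reads were removed, clean reads were mapped with Bowtie2 and expression was estimated with RSEM, and the submitters' processing notes name the build mm10 and DESeq2. The authors deposited, for each RefSeq transcript, estimated counts that are not normalized and FPKM, which are scaled to transcript length and library total. The methods speak of triplicates and 2 batches, and neither is given per library here. Transcripts left out of a table were taken as 0, and transcripts without a symbol held at most 0.128% of a library's counts.

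Estimated counts were rounded and tested with edgeR 4.0.16 (quasi-likelihood, filterByExpr, TMM, Benjamini-Hochberg adjusted p under 0.05) in R 4.3.3, over 14 libraries with condition as a block for the populations, and within each population (7 libraries) with sex, genotype and treatment as terms or with 1 interaction. The alternatives were DESeq2 1.42.0, other scalings and filters, limma 3.58.1 on log2(FPKM + 1) and log2(FPKM + 0.1), all 16 libraries, and each library left out. Single pairs used differences of log2(FPKM + 1) with a threshold of 1. A count of 0 allows up to 3 counts, which covers counting error only. Tables were handled in Python 3.11.15 with pandas 2.3.3.

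The fits were tested on simulated counts with 200 changed genes per run. For the populations, 23% of 4-fold and 42.5% of 16-fold changes among 13700 genes were recovered. For treatment these shares were 35.5% and 63% in microglia (12720 genes) and 1.5% and 32.5% in macrophages (11990 genes), for population by treatment 0% and 14.5% (13700 genes), and changes of 2-fold were recovered in at most 0.5%.

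The members and all gene lists were chosen with earlier results of these data known. Members are named with their levels, and with a log2 fold change, SE and p where called or where the unadjusted p is under 0.05. In other lists, the 4 called genes with the largest change are named, and for each member the 3 genes most like it. A few genes that these rules name are not reported here. Promoters of Tmem119, Gpr34 and Selplg were not analysed here.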

Additional observations from a re-analysis of the deposited data

Results flagged for a closer look

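Because no condition is repeated, the 8 libraries of a population were treated as 1 set to look for a library far from the others, gene by gene on the log2(FPKM + 1) scale. Of 18 such sets, 2 held one past Dixon's 95% limit for 8 values, where chance flags about 1 in 20 sets. Selplg in microglia was highest in PFF-WT males (4638 FPKM), and the gap to the next library was 0.537 of the whole range. Sparc in macrophages was highest in MONO-WT females (43.7 FPKM), with a gap of 0.528 of the range, but after TMM scaling PFF-WT females were close to it (60.3 against 63.2 TMM-scaled FPKM). The first of these is one of the libraries in which a few genes take most counts, and the second had the highest sum of choroid plexus markers among macrophages. Their part was not tested.

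On the deposited FPKM, the difference between the genotypes in Cx3cr1 of microglia ran in opposite directions between the 2 female pairs and the pair of males given PFF, and TMM scaling removed this. CD163KO minus WT was -1.10 with MONO and -1.07 with PFF in females and 1.74 with PFF in males on the log2(FPKM + 1) scale, a difference of 2.83 between the sexes. After TMM scaling these values were -1.03, -1.08 and -0.43, all below 0. The pair of males given MONO, whose CD163KO library the study excluded, went against the males given PFF on each scale, with 272 FPKM in CD163KO against 506 in WT and 332 against 254 after TMM scaling. The edgeR interaction over the 7 libraries did not call this difference (0.89, adjusted p = 1). The fit without PFF-WT males gave 1.79 for sex with genotype. It lacks the WT library of the pair of males given PFF, so it cannot test the difference described here.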

How the results depend on the processing

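Over 23 alternatives the population contrast called 7 to 9 of the 9 genes. Sparc, Tmem119, Golm1, Olfml3, Gpr34, Cx3cr1 and Selplg were called higher in microglia in each of them, and their log2 differences ran from 2.14 for Selplg to 5.89 for Sparc. Gpr84 ran from 2.88 to 5.28 and Fcrls from 0.13 to 1.94, the latter called only with limma on FPKM. Over all genes this contrast called 926 higher and 1616 lower with edgeR, 2626 and 2297 with DESeq2, 5654 and 675 with limma on log2(FPKM + 1), 5730 and 704 with limma on log2(FPKM + 0.1), 2209 and 2575 without macrophages of PFF-WT males and 2185 and 2582 without microglia of PFF-WT males.

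Within the populations, treatment, genotype, sex and both contrasts with population called 0 of the 9 genes under every alternative. Leaving out 1 library, genotype with treatment called 0 to 3 of the 9 in microglia (3 without PFF-WT females, where 1.68% of all genes were called) and 0 to 2 in macrophages (2 without PFF-WT females, 26.5%), and sex with genotype called 0 to 5 in microglia (5 without MONO-WT males, 5.01%, and 1 without PFF-WT males, 3.02%) and 0 to 2 in macrophages (2 without MONO-WT males, 25.3%). These interaction fits keep 1 residual degree of freedom. Sex with genotype without PFF-CD163KO males and genotype with treatment without MONO-CD163KO females could not be fitted. Gpr34 was called in 2 of them, at -4.22 for genotype with treatment without PFF-WT females and at -4.28 for sex with genotype without MONO-WT males, and ranged from -4.58 to -0.58 and from -4.58 to -0.65 over all alternatives of these terms. Tmem119 in macrophages ranged from 0.74 to 1.42 for treatment and from -1.41 to -0.66 for genotype, Sparc for sex from -1.88 to -0.63, and Gpr84 for treatment in microglia from 0.05 to 0.91, and none was called.

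In the single pairs of macrophages, TMM scaling left 0 genes past 1 between PFF and MONO in WT females (2 on FPKM) and 1 in CD163KO females (2), 1 between CD163KO and WT females with MONO (5), 4 between PFF-WT males and females (7) and 0 in PFF-CD163KO mice (1). With a pseudocount of 5, the pairs of PFF and MONO held 0 in WT and 1 in CD163KO females, and CD163KO against WT females held 3 with MONO and 1 with PFF. In microglia the counts of the pairs stayed within 1.5 times, but between PFF-WT males and females the genes past 1 went from 1 higher and 3 lower to 6 higher and 0 lower. TMM scaling also reversed single values. Those that were past 1 on FPKM all come from pairs with PFF-WT males, and smaller differences turned in other pairs too, such as those of 6 of the 9 genes between PFF and MONO in macrophages of WT females. Against females, microglia turned to 0.15 for Cx3cr1 and 0.65 for Golm1, and macrophages to -0.41 for Tmem119, -0.94 for Olfml3, -0.40 for Cx3cr1 and -0.83 for Selplg. For CD163KO minus WT with PFF, microglia of males turned to -0.43 for Cx3cr1, -0.55 for Golm1 and -0.57 for Gpr84, and macrophages to 0.23 for Olfml3. The cause of these changes was not tested. The population contrast is matched by condition, and with sex, genotype and treatment as additive terms in place of this block it called 8 of the 9 genes, with 1115 higher and 1874 lower of 12826 genes in all. Within a population no library has a partner. The fitted differences of Gpr34, Tmem119, Sparc and Gpr84 given by range kept their sign. The median of the 9 estimates for genotype in microglia turned from -0.46 (all genes -0.04) to 0.10 without PFF-WT males (all genes -0.02). With limma on log2(FPKM + 1) it was 0.05, below the median of all genes (0.40) as in the main fit. Depth was at least 8648751 counts, and each condition has a single library.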
